A study of Mus musculus with 6 samples.

Results

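The baseline expression profile of parental ID8, a mouse ovarian cancer cell line, was described from the 3 arrays of a 6-array series that the labels assign to that line. The other 3 arrays hold ID8-M, a line the labels describe as selected in the peritoneal cavity, and they entered no comparison here. Per the labels, ID8 is an epithelial papillary serous adenocarcinoma line of female C57BL/6 origin, and no genetic change or treatment is named for it. The cells were grown in high-glucose medium with 4% fetal bovine serum, antibiotics, insulin, transferrin and sodium selenite. Total RNA was labelled as biotinylated cRNA and hybridised to Illumina bead arrays at positions A, B and C of 1 chip. Nothing in the labels says whether the 3 samples came from separate cultures, so the spread between them may be technical. As a cultured line, ID8 brings no stroma or immune cells of a tumour, which limits it as a model.

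Ovarian surface epithelium is the mesothelial layer that covers the ovary. It shares a coelomic origin with the peritoneal lining, and it carries simple keratins together with the mesenchymal filament vimentin. ID8 arose from mouse ovarian surface epithelial cells that became tumorigenic after long passage in culture, and it is widely used because it forms ascites and peritoneal nodules in immunocompetent mice. What such a line secretes, displays and can respond to sets which signals it can exchange with the peritoneal cavity.

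A probe was counted as detected when its detection p, which ranks it against the negative control probes of its own array, was under 0.05 on all 3 arrays. Of 45281 probes, 15259 met this rule, which is 33.7%. A gene was called detected if at least 1 of its probes was, and not detected if every probe missed the threshold on every array. On this basis 8495 of 19057 named genes were detected, which is 44.6%, and 9230 were not detected on any array, which is 48.4%. The remaining 1332 genes were detected on 1 or 2 arrays. The 44.6% is the share beside which every list count below has to be read. Values are deposited mean bead intensities (AVG_Signal) of the brightest detected probe of a gene, in intensity units, without background subtraction. The mean background, inferred from the detection p-values, was 138, 138.9 and 132.2 units on replicates 1, 2 and 3. Means are given ± SD over the 3 arrays. Replicate 3 was the lowest array for 69% of the detected probes, and the deposited values used here are not corrected for that. The median probe was read from 38 to 39 beads per array, and the number of beads and arrays limits the precision. Probes just inside the threshold had a median of 169 units and those just outside one of 168.

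Gene families with a known outcome in cultured epithelial cells show how far the calls reach. Among 1078 olfactory receptor genes, which serve the nose, 16 were detected, or 1.48%, with means from 165 to 217 units. Of 208 vomeronasal and taste receptor genes 1 was detected, or 2 without replicate 1. At or below the brightest of these olfactory receptors lay 1401 detected genes, or 16.5% of them, which are called faint in what follows. Failure to detect is no proof of absence either. Of 56 core cytosolic ribosomal protein genes, which every cell uses, 51 were detected, and Rpl6, Rpl17, Rps20, Rps23 and Rpsa were not. A wider match on symbols, which also takes ribosomal S6 kinases and ribosomal protein-like genes, gave 58 of 71. Brightness also depends on the probe. Where several probes of a gene were detected, which held for 3184 genes, the brightest exceeded the dimmest by a median of 2.21-fold. The ranks given here order probes by brightness and do not order genes by molecules per cell.

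The brightest genes were those of translation, the cytoskeleton, chromatin, energy supply and iron storage. Tuba1b, an alpha-tubulin, ranked first with 35693, 34129.8 and 32928 units on the 3 arrays. Fth1, the heavy chain of the iron store ferritin, gave 31458, 30589.9 and 33464 units. Eef1a1, the elongation factor that brings tRNA to the ribosome, gave 32644, 30950.0 and 31484. Fth1 was highest on replicate 3 and the other 2 genes on replicate 1. The 25 brightest genes held 10 ribosomal protein genes, led by Rps2 (32389.9 ± 648) and Rplp1 (32258 ± 2425), and 5 histone H2A genes, whose near-identical copies may share signal. Also among them were the beta-tubulin Tubb5 (29275 ± 2226), the ATP synthase subunits Atp5b (28583 ± 968) and Atp5g3 (25765 ± 1201), the mitochondrial gene CYTB (26109.7 ± 1986), the prolyl isomerase Ppia (27110.4 ± 688), beta-actin Actb (26068 ± 1035) and the elongation factor subunit Eef1g (27159 ± 1027). The 100 brightest genes carried 16.9% of the summed signal of detected genes and included 32 ribosomal protein genes. Over all detected genes the median mean was 549 units, 2696 genes lay above 1000 units and 172 above 10000.

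**Figure D1:**
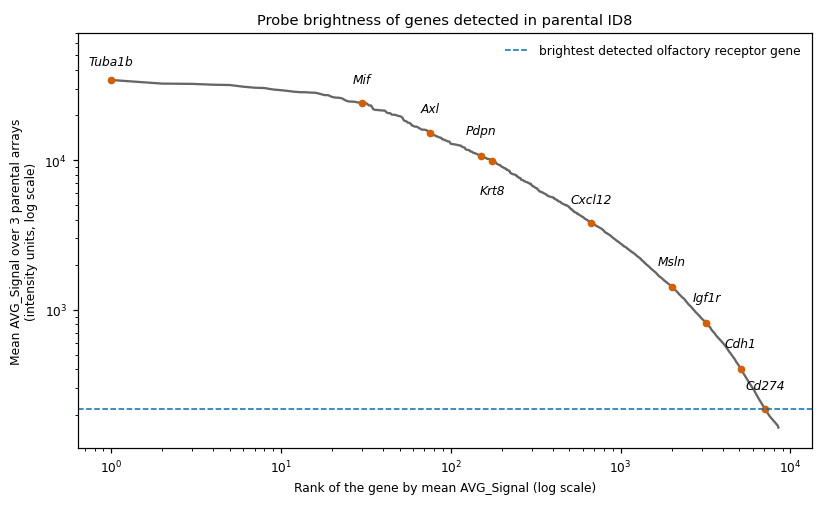
Mean AVG_Signal over the 3 parental arrays (intensity units, log scale) against the rank of each detected gene (log scale), with named genes as orange points and the brightest detected olfactory receptor gene, at 217 units, as a dashed line. The curve is nearly flat among the first genes, passes the mesothelial gene Pdpn at rank 151 and Krt8 at rank 176, and meets the dashed line near Cd274 at rank 7064.

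Markers of mesothelium and ovarian surface epithelium were present in part in ID8. Of 26 listed genes with a probe, 15 were detected, which is 57.7% against 44.6% of all genes, and 11 of them, or 42.3%, lay above the faint range, where 37.2% of all genes lay. Pdpn, the mucin-type glycoprotein podoplanin of mesothelium, gave 10715, 10925 and 10159.7 units on replicates 1, 2 and 3. Upk1b, a uroplakin of mesothelium and urothelium, gave 6797, 6436 and 5763 units. Upk3b, another uroplakin, gave 2714, 2843 and 2429. All arrays of these 3 genes lay far above background, and each gene was lowest on replicate 3. Msln, the surface protein mesothelin that binds the ovarian cancer antigen Muc16, gave 1337, 1572 and 1336 units, with replicate 2 the highest. Gata6, a transcription factor of coelomic epithelium, had a mean of 2383 ± 137, the galectin Lgals7 one of 2398 ± 130.1, and the retinal dehydrogenase Aldh1a1 one of 1204 ± 98.3. Other probes of Gata6 and Lgals7 were much dimmer, at 231 and 270.2 units.

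The match to mesothelium was incomplete. The mesothelial calcium-binding protein gene Calb2, the mesothelial surface gene Lrrn4, the retinoic acid synthase Aldh1a2 and the coelomic transcription factor genes Tcf21, Lhx2, Lhx9 and Emx2 were not detected on any array, nor were Efemp1 or Dpp4. Cdh2, which encodes N-cadherin, the main cadherin of ovarian surface epithelium, reached the threshold on 2 arrays only. Gata4, a relative of Gata6, and the basonuclin genes Bnc1 and Bnc2 were detected in the faint range. Wt1 and Muc16 were not analysed here.

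ID8 carried the paired keratins of simple epithelium. Krt8, the type II keratin of simple epithelia, gave 10222, 9915 and 9512 units. Krt18, its type I partner, gave 6179, 5176 and 4953 units. Krt19, a type I keratin of simple and mesothelial epithelia, gave 4292, 3911 and 4364, with its lowest value on replicate 2, whereas Krt18 was highest on replicate 1. Krt7, the keratin that often accompanies Krt19, gave 228 ± 11.5 units. Of keratin genes 7 of 49 were detected in all, or 14.3% against 44.6% of all genes, these 4 included. The other keratins detected were Krt10, a keratin of differentiating epidermis (921 ± 56.5), and, in the faint range, Krt80 and the basal keratin Krt14. The labels name an epithelial origin. Simple keratins and Cdh1 were detected, while Epcam, the usual epithelial adhesion marker, and most other simple epithelial genes listed were not.

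Among 32 simple epithelial genes with a probe, 12 were detected, or 37.5% against 44.6% of all genes. On no array were 18 detected, or 56.2% against 48.4%. Above the faint range lay 9, or 28.1% against 37.2% of all genes. Cdh1, which encodes the epithelial adhesion protein E-cadherin, was detected at 401, 429 and 383 units, and its other probe reached 167. The lipoprotein receptor and tricellular junction gene Lsr (615 ± 32.9), the splicing regulator Esrp2 (436 ± 30), the protease inhibitor Spint1 (336 ± 15) and the claudin Cldn3 (275 ± 7.56) were also present. Not detected were the adhesion gene Epcam, the tight junction genes Cldn4, Ocln and Tjp3, and the transcription factor genes Grhl2, Ehf, Elf3 and Ovol1. Esrp1, a relative of Esrp2, was not detected either. Of claudin genes 7 of 20 were detected, or 35.0%, led by Cldn15 (2348 ± 8.5) and Cldn12 (1297 ± 141). Basal and stratified epithelial markers gave 5 of 16 detected genes, with Krt5, Trp63, Dsg3 and Dsc3 not detected. The differentiation gene Lor (651 ± 56.8) and the hemidesmosome integrin gene Itgb4 (264 ± 21.8) were among those detected.

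**Figure D2:**
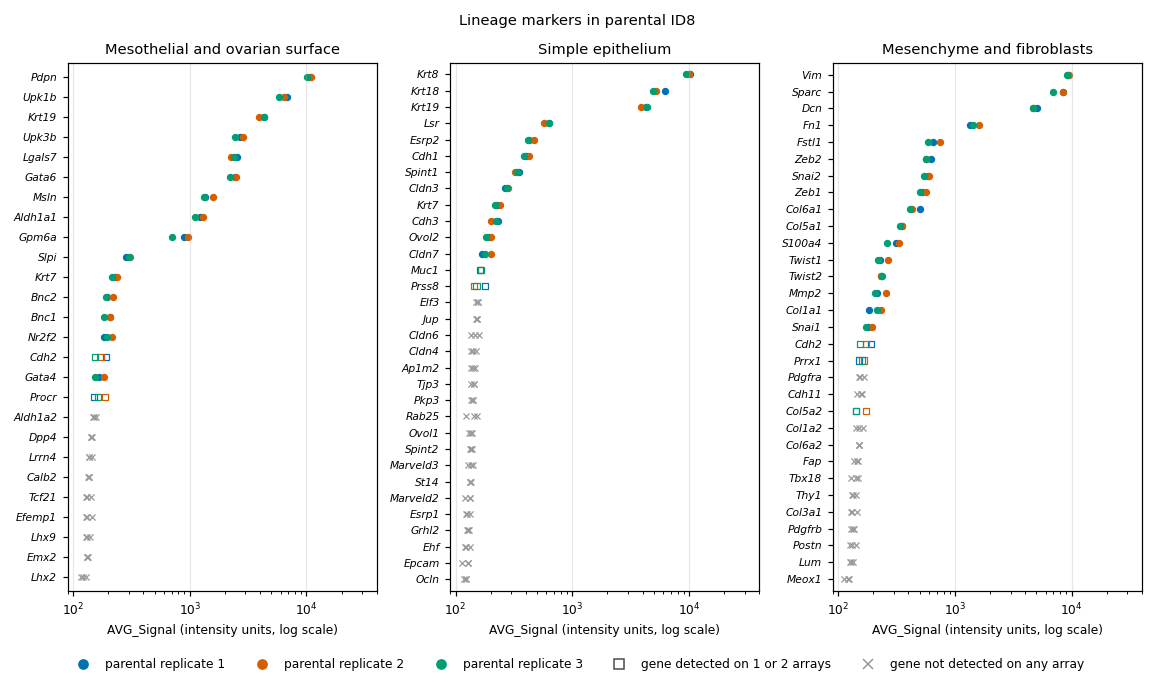
AVG_Signal (intensity units, log scale) of every member with a probe of 3 lineage lists on the 3 parental arrays, with filled circles for detected genes, open squares for genes detected on 1 or 2 arrays and grey crosses for genes not detected on any array. In each list a few genes are bright (Pdpn 10599.8, Krt8 9883, Vim 9324), while the crosses sit at background.

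Mesenchymal genes stood beside the keratins. Vim, which encodes vimentin, gave 9285, 9544 and 9142 units. Sparc, a secreted matrix glycoprotein, gave 8426, 8368 and 6968 units. Dcn, the small proteoglycan decorin, gave 5059, 4664 and 4693 units. Sparc was lowest on replicate 3, and the other 2 genes varied little between arrays. Of 31 genes on this list 16 were detected, or 51.6% against 44.6% of all genes. Above the faint range lay 14 of them, or 45.2% against 37.2%. Also detected were Fn1, the matrix protein fibronectin (1469 ± 139.9), Zeb2 (587 ± 31.5), Snai2 (579 ± 25.9) and Zeb1 (529 ± 29.9), the last 3 being transcription factors that repress Cdh1. The list was met in part, and 12 of its genes, or 38.7% against 48.4% of all genes, were not detected on any array. The platelet-derived growth factor receptor genes Pdgfra and Pdgfrb, the fibroblast surface genes Thy1 and Fap, and the matrix genes Col3a1, Col1a2, Lum and Postn were not detected on any array, and Col1a1 lay in the faint range. Of 41 collagen genes 9 were detected, or 22.0% against 44.6% of all genes. They were led by the basement membrane chains Col4a1 (2835 ± 153), Col4a2 (2103 ± 184) and Col4a5 (1743 ± 208), followed by Col16a1 (1254 ± 180.0). Contractile genes gave 6 of 15, with Tpm1, a tropomyosin (15602 ± 1408), Acta2, smooth muscle actin (5638 ± 357), and Mylk, the myosin light chain kinase (1849 ± 34.2). The smooth muscle genes Myh11, Cnn1 and Myocd were not detected.

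Markers of the other epithelia and cells of the ovary and oviduct were mostly missing. Of 14 genes of the Mullerian duct and oviduct, 3 were detected, or 21.4% against 44.6% of all genes. All 3 were in the faint range, and Pax2, Ovgp1, Sox17 and Wnt7a were not detected. Pax8, the transcription factor of oviduct secretory cells and of most human serous ovarian carcinomas, reached the threshold on 1 array. Granulosa and steroidogenic markers gave 4 of 15, or 26.7%. Amhr2, the receptor for anti-Mullerian hormone, was detected with 699.9, 598 and 577 units. The activin subunit gene Inhba gave 1045, 1002 and 936 units. All 3 arrays of both genes were well above the faint range. The granulosa factor Foxl2, the hormone gene Amh, the follicle-stimulating hormone receptor gene Fshr and the steroid synthesis genes Star, Cyp11a1, Cyp17a1 and Hsd3b1 were not detected. Of 17 germ cell genes 3 were detected, or 17.6%, all faint. Among 38 Hox genes, which record position along the body axis, 7 were detected, or 18.4%, with Hoxc6 (1053 ± 43.7) and Hoxd8 (690.3 ± 46.9) the brightest. The genes Hoxa9, Hoxa10 and Hoxa11 of the Mullerian duct were not detected.

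Few markers of blood, vascular or other cells were seen, as far as these probes can show. Of 19 leukocyte and macrophage genes only Cd14 was detected (584, 577 and 592 units), and Ptprc, the pan-leukocyte phosphatase CD45, was at background with all 4 of its probes, as were Itgam, Csf1r, Adgre1, Lyz2 and Tyrobp. The summed signal of that list, detected or not, was 3126, 3189 and 3002 units over its 19 genes, most of it background. Markers of T, B and NK cells gave 3 of 16, namely Cd8b1 (1708 ± 76.9), the perforin gene Prf1 (396 ± 48.3) and Cd3e (225 ± 25.3), while Cd3d, Cd3g, Cd8a, Zap70, Ms4a1 and Nkg7 were not detected. Each of these 3 genes had further probes that were not detected on all arrays. Endothelial markers gave 3 of 15. Esam, an adhesion molecule of endothelium and platelets, gave 1717 ± 106.5 and Flt1, a receptor for vascular endothelial growth factors, 994 ± 17.3, while the defining genes Pecam1, Cdh5, Tie1, Tek and Vwf were not detected. Erythroid and platelet genes gave 0 of 10, neuronal and glial genes 1 of 14 and hepatocyte genes 2 of 11, the last in the faint range. Mbp, a myelin gene, was the neural exception, at 894 ± 64.8 units by 1 of its 5 probes. Adipocyte genes gave 2 of 10, of which Lpl, lipoprotein lipase, reached 5797, 6052 and 5088 units. Pparg, a nuclear receptor of fat cells, gave 623, 663 and 615 units, with Adipoq, Plin1, Fabp4 and Lep not detected.

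**Figure D3:**
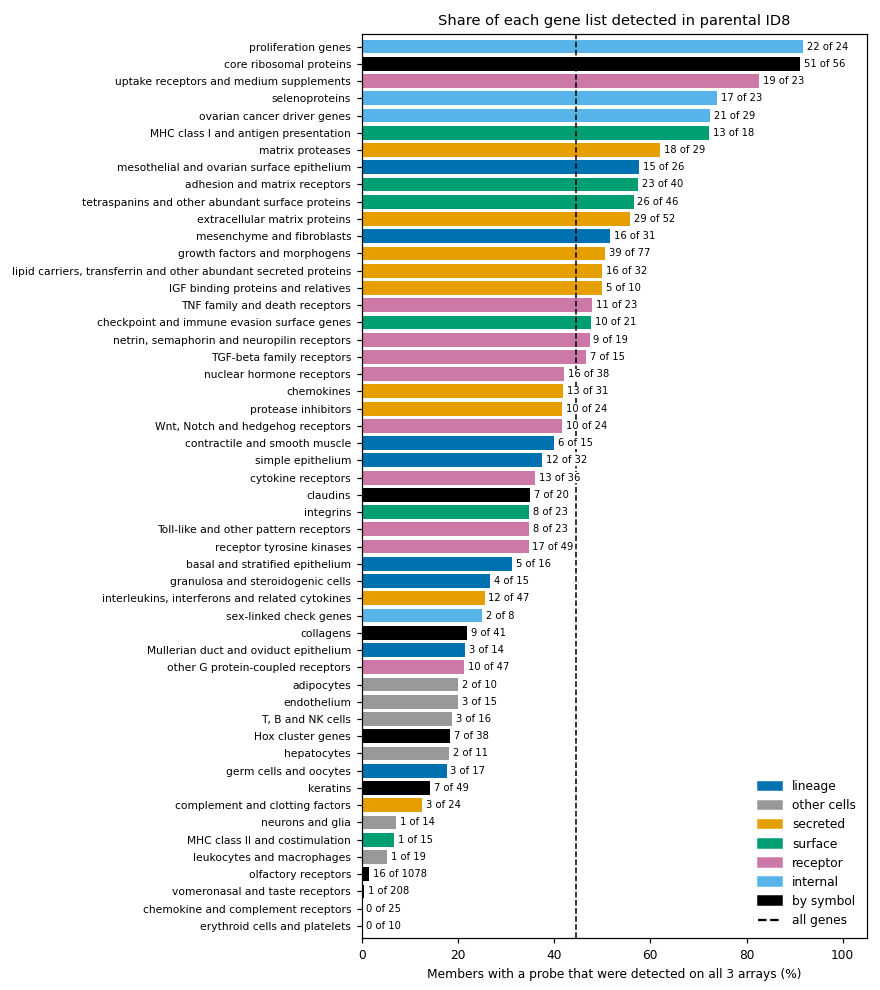
Percentage of the members with a probe that were detected on all 3 parental arrays, for each gene list, with the count beside each bar, colours for the kind of list and a dashed line at 44.6%, the share over all named genes. Proliferation and ribosomal genes reach 91.7% and 91.1%, the mesothelial list 57.7% and the simple epithelial list 37.5%, whereas the leukocyte list lies at 5.26% and chemokine receptors at 0.

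Among secreted products, several matrix proteins stood within the 100 brightest genes, as did the cytokine Mif and the binding protein Igfbp7 given below. Of 52 genes of the extracellular matrix 29 were detected, or 55.8% against 44.6% of all genes. Lgals1, the galectin that binds matrix glycoproteins and T cell glycans, gave 20622, 22276 and 21206 units. Ccn2, the connective tissue growth factor and a target of the YAP coactivator, gave 17624, 18388 and 16656 units. Bgn, the small proteoglycan biglycan, gave 15536, 17999.7 and 15186 units. Lgals1, Ccn2 and Bgn were all brightest on replicate 2, and all 3 stood among the 100 brightest genes. Lgals3, another galectin, followed with 12764 ± 545 units, then Hspg2, the basement membrane proteoglycan perlecan (4997 ± 403), and Fbln2, a fibulin (2899 ± 375). Not detected were Tnc, Vcan, Tgfbi, Nid1, Nid2, Fbln1, Fbln5 and Vtn. Spp1 was not analysed here.

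Some protease inhibitor genes were bright next to background. Timp2, a tissue inhibitor of metalloproteases, gave 10568, 10715 and 9703 units. Its relative Timp1 gave 6029, 5964 and 5383 units. Timp3, which binds to matrix, gave 2746, 3294 and 2579 units. Each of the 3 was lowest on replicate 3. Serpinh1, the collagen chaperone HSP47, which belongs to the serpin family without inhibiting proteases, gave 9088 ± 377, Cst3, the cathepsin inhibitor cystatin C, 5025 ± 164, and Serpinb6a 4938 ± 503. The inhibitor list held 10 of 24, or 41.7% against 44.6% of all genes, with Wfdc1, Serping1, Tfpi2 and Reck not detected. Above the faint range lay 8, or 33.3% against 37.2%. Of 29 matrix protease genes 18 were detected, or 62.1%. Ctsb, the cysteine protease cathepsin B, gave 8158 ± 716, Htra1, a serine protease that cuts matrix proteins, 3930.2 ± 334, the stromelysin Mmp10 2176 ± 303, the collagenase Mmp13 2163 ± 178, the sheddase Adam9 1812 ± 280.4 and the membrane-type metalloprotease Mmp24 1063 ± 28.2. Mmp3, Mmp7, Ctsk and Adamts4 were not detected, and the gelatinase Mmp9 was detected on 1 array. Proteins that bind insulin-like growth factors gave 5 of 10. Igfbp7 gave 17248, 16182 and 16748 units, by the only detected probe of 5. Igfbp4, whose product holds insulin-like growth factors until a protease cuts it, gave 7749, 7668 and 7396 units. These were the brightest of the list, and Igfbp1, Igfbp2 and Igfbp5 were not detected.

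Of 31 chemokine genes 13 were detected, or 41.9%, near the 44.6% of all genes. Cxcl12, the chemokine that guides cells bearing Cxcr4, gave 3586, 3996 and 3905 units. Cxcl16, a transmembrane chemokine, gave 1149, 1237 and 1228 units. Ccl2, the monocyte chemoattractant, gave 799, 845 and 686 units. Cxcl12 was lowest on replicate 1 and Ccl2 lowest on replicate 3, and every array of each gene lay above the faint range. Ccl7, a relative of Ccl2, had a mean of 428 ± 50.6, Ccl25 518 ± 55.8, Ccl27a 596 ± 8.58, the fractalkine gene Cx3cl1 303 ± 20 and Ccl9 272 ± 27.8. The neutrophil chemokines Cxcl1, Cxcl2 and Cxcl3, the T cell chemokines Cxcl9 and Cxcl11, and Ccl3, Ccl4 and Ccl22 were not detected.

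Of interleukin, interferon and related cytokine genes 12 of 47 were detected, or 25.5%. Mif, the macrophage migration inhibitory factor, gave 24498, 24429.8 and 23482 units and was the only one among the 100 brightest genes. Il1rn, the antagonist of the interleukin 1 receptor, gave 1274, 1244 and 1165 units. Csf1, the growth factor of macrophages, gave 673, 729 and 639 units. All 3 arrays of Il1rn and Csf1 lay above the faint range. The gp130 cytokine genes Clcf1 (429 ± 1.92), Lif (291 ± 4.79) and Ctf1 (251 ± 18.9) and the acute phase gene Saa3 (226 ± 4.32) were detected, whereas Il6, Il1a, Il1b, Il10, Tnf, Csf3, Osm and Tslp were not. No interferon gene on the list (Ifnb1 and Ifng) was detected.

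Growth factors gave 39 of 77 detected genes, or 50.6% against 44.6% of all genes. Hdgf, the hepatoma-derived growth factor, which lacks a secretion signal, gave 15259, 14271 and 13656 units. Pdgfb, a platelet-derived growth factor chain, gave 3359, 3889 and 3326 units. Btc, the epidermal growth factor receptor ligand betacellulin, gave 3298, 3924 and 2959 units. Replicate 2 was the highest array for Pdgfb and Btc, and replicate 1 for Hdgf. Wnt6 (2489.6 ± 99.4), Bmp4 (2250.0 ± 27.1), Vegfb (1963 ± 70.5), Pdgfa (1727 ± 36.1) and Grn, the progranulin gene (1684 ± 20.3), followed. Vegfa, an angiogenic and vascular permeability factor, was detected at 711, 637 and 646 units, and Pgf and Vegfd were not. Also not detected were Hgf, Fgf2, Fgf7, Igf2, Ereg, Bmp2, Bmp7 and Shh. Igf1, the circulating growth factor that Igf1r binds, had a mean of 454 ± 17.9 and was named after its value was seen. Complement and clotting genes gave 3 of 24, namely Masp1 (466 ± 30.4), Cfp (342 ± 9.56) and C1s1 (286 ± 48.8). Among carriers and other secreted proteins 16 of 32 were detected, including B2m (5091 ± 817), the actin-binding peptide gene Tmsb4x (10621 ± 2053), the lysosomal prosaposin gene Psap (4329.9 ± 135), the sterol carrier Npc2 (2489.9 ± 201) and Trf, transferrin itself (1564 ± 145). The apolipoprotein genes Apoe, Apoa1, Apob and Apoc1 were not detected.

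**Figure D4:**
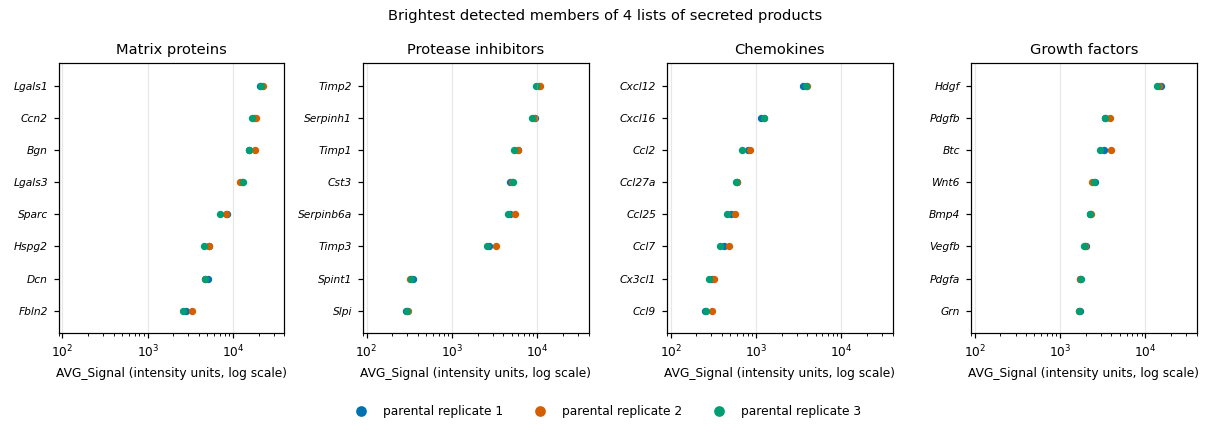
AVG_Signal (intensity units, log scale) on the 3 parental arrays for the 8 brightest detected members of 4 lists of secreted products, 1 coloured point per replicate. Lgals1 at 21368, Timp2 at 10329, Cxcl12 at 3829 and Hdgf at 14395 units head the panels, and the 3 points of each gene nearly coincide on this scale.

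Within the list of tetraspanins and other surface proteins, members of the Emp family were the brightest, while the receptors Axl and F2r are given below. Emp1, an epithelial membrane protein gene, gave 16987, 17165 and 13766 units. Its relative Emp3 gave 11547, 11882 and 11539.9 units. Emp1 was lowest on replicate 3, while the arrays of Emp3 nearly coincided. The tetraspanin gene Cd81 gave 11459.6, 11214 and 11628 units. Cd63, a tetraspanin of late endosomes and exosomes, gave 10124, 9828 and 10382 units. Both were highest on replicate 3, and the tetraspanin gene Cd151 had a mean of 7013 ± 498. The caveolar gene Cav1 had a mean of 6571 ± 690.5 and the sodium pump subunit Atp1b1 one of 6143 ± 516. Folr1, the folate receptor that is a drug target in ovarian cancer, was detected at 1036, 1111 and 1062 units. Of this list 26 of 46 were detected, or 56.5% against 44.6% of all genes. Prom1, Cd34, Cd24a, Eng, Slc34a2, Folr2 and Anpep were not detected.

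Integrin genes gave 8 of 23, or 34.8% against 44.6% of all genes, a set that can form receptors for laminin, fibronectin and vitronectin. Itga3, the laminin-binding alpha 3 subunit, gave 5554, 5308 and 4906 units. Itgb5 gave 1633 ± 158, Itgb1, the common beta subunit, 417 ± 15.1, Itgav 411 ± 46.9, Itga5, the fibronectin-binding subunit, 363 ± 22.8 and Itga6 298 ± 48.3. The leukocyte integrin genes Itgb2, Itgam, Itgae and Itgb7 and Itga1, Itga2, Itga7, Itgb6 and Itgb8 were not detected. Other adhesion and matrix receptors gave 23 of 40, or 57.5%. Cd44, the hyaluronan receptor, gave 5218, 5283 and 4722 units by the brightest of 5 detected probes out of 9. The heparan sulfate proteoglycan genes Gpc1 (4508 ± 179.9) and Sdc4 (2424 ± 249), the laminin receptor dystroglycan Dag1 (1751 ± 148), the collagen receptor Ddr1 (1072 ± 14.3) and the urokinase receptor Plaur (974 ± 42.9) were present, and Cdh11, Cdh6, Gpc3 and Lyve1 were not detected.

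Genes of class I antigen presentation were largely detected and those of class II were not. The invariant light chain B2m of class I molecules gave 4867, 5997 and 4410.1 units. The heavy chain gene H2-D1 gave 1177, 1123 and 1209 units. The heavy chain gene H2-K1 gave 412, 425 and 373 units. B2m was highest on replicate 2. Class I heavy chain genes are close paralogs, and their probes may share signal. The class I list held 13 of 18, or 72.2% against 44.6% of all genes. It included Psmb10, an immunoproteasome subunit (1785 ± 122), H2-T23 (622 ± 23.3) and the chaperone genes Pdia3 (2922 ± 386), Calr (1241 ± 114) and Tapbp (415 ± 1.98). Tap1, a subunit of the peptide transporter, was not detected, nor was Nlrc5, the class I transactivator. Canx was at background as well, although calnexin serves every secretory cell. Class II and costimulatory genes gave 1 of 15, or 2 without replicate 1, with Tnfsf9 in the faint range and H2-Aa, H2-Ab1, H2-Eb1, Cd74, Ciita, Cd86 and Cd40 not detected.

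Surface genes listed for immune checkpoints and immune evasion gave 10 of 21, or 47.6%, near the 44.6% of all genes. Cd47, which inhibits phagocytosis, gave 2315, 2559.7 and 2135 units. Nectin2, a ligand of NK and T cell receptors, gave 1969, 2090.5 and 1738 units. Cd55, which blocks complement, gave 1022, 1136 and 869 units. Replicate 2 was the highest and replicate 3 the lowest array for all 3 genes. Lgals9 (425 ± 40.4), the complement regulator Cr1l (375 ± 38.9), the poliovirus receptor gene Pvr (348 ± 14.7), Cd276 (283 ± 20.9) and Cd59a (259.7 ± 14.9) were also detected. Cd274, which encodes PD-L1, gave 213, 233 and 211 units, with 2 of the arrays within the faint range. Pdcd1lg2, Vtcn1, Cd200, Entpd1 and Ulbp1 were not detected.

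Among receptor tyrosine kinases 17 of 49 were detected, or 34.7%. Axl, the receptor for the vitamin K-dependent protein Gas6, gave 15570.5, 15354 and 14256 units, rank 76 of all detected genes, by 1 of its 2 probes. Of its family, Mertk was not detected and Tyro3 reached the threshold on 1 array. Egfr, the epidermal growth factor receptor, gave 1820.5, 1935 and 1642 units with 5 of 6 probes detected. Its partner Erbb2 gave 334, 335 and 294 units, while Erbb3 and Erbb4 were not detected. Ryk, a Wnt receptor, had a mean of 2975 ± 198, the ephrin receptor Epha2 1348 ± 48.7, Fgfr2 738 ± 85.4 and Met, the hepatocyte growth factor receptor, 243 ± 19.9. Not detected were Fgfr1, Fgfr3 and Fgfr4, the stem cell and macrophage receptors Flt3 and Csf1r, and Ret, Alk and Ntrk2.

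The receptors for insulin and transferrin, both of which the medium supplied at 5 µg/ml, were detected. Insr, the insulin receptor, gave 412, 503 and 378 units. Igf1r, which insulin also engages at high dose, gave 847, 845 and 746 units. Both were lowest on replicate 3, and Insr was highest on replicate 2. Tfrc, the transferrin receptor, gave 5175, 6083 and 4592 units. The ferritin light chain gene Ftl1 gave 19517, 15707 and 15810.0 units, with replicate 1 above the other 2. The list of uptake receptors and supplement genes held 19 of 23, or 82.6%. It included Igf2r (903 ± 17.7), the adaptor Irs2 (1407 ± 49.7) and the sorting receptors Sort1 (2945 ± 206) and M6pr (2533 ± 217), while Tfr2, Scarb1, Lrp2 and Cubn were not detected. Selenium, supplied as selenite at 5 ng/ml, enters selenoproteins, of which 17 of 23 genes were detected, or 73.9% against 44.6% of all genes. Gpx1, a peroxidase that falls when selenium is short, gave 15372, 13056 and 15853 units. Gpx4, which protects membrane lipids, gave 9911, 9597 and 9611 units. Selenoh, a nuclear selenoprotein, gave 11608, 12245 and 11253 units. Gpx1 was lowest on replicate 2. All arrays had the same supplements, so an effect of selenite, insulin or transferrin on these genes was not tested. The secreted peroxidase gene Gpx3, the intestinal Gpx2 and the deiodinase genes Dio1, Dio2 and Dio3 were not detected.

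Transforming growth factor beta and bone morphogenetic protein receptors gave 7 of 15, or 46.7%, near the 44.6% of all genes. Tgfbr2, which binds transforming growth factor beta, gave 2445, 2554 and 2273 units. Tgfbr1, its signalling partner, gave 2181, 2533 and 1965 units. Bmpr2 gave 1082 ± 166, Acvr1 614 ± 67.9 and Bmpr1a 593 ± 58.7. Each of these 5 genes lay above the faint range, and Acvrl1, Eng, Acvr2a and Bambi were not detected. Receptors of Wnt, Notch and hedgehog gave 10 of 24, or 41.7%, of which 4 lay above the faint range. They were the Wnt receptors Fzd5 (1342 ± 81.8), Fzd7 (262 ± 30.1) and Fzd6 (221 ± 15.2) and the hedgehog transducer Smo (564 ± 52). None of Notch1, Notch2, Notch3 or Notch4 was detected on any array. Receptors for semaphorins, netrins and Slits gave 9 of 19, or 47.4%, with Plxnb2 (2299.7 ± 187), Nrp1 (2281 ± 204) and Neo1 (1151 ± 142) the brightest.

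Among cytokine receptors 13 of 36 were detected, or 36.1% against 44.6% of all genes, and 0 stood among the 100 brightest genes. Il17rc, a subunit of the interleukin 17 receptor, gave 760.4, 826 and 704 units. Ghr, the growth hormone receptor, gave 704, 771 and 639 units. Osmr, the oncostatin M receptor, gave 599.6, 669 and 553 units. In each of the 3, replicate 2 was the highest and replicate 3 the lowest array. Il6st, the shared gp130 subunit, had a mean of 371 ± 40.6. Both interferon gamma receptor chains were detected, Ifngr1 at 409 ± 33.5 and Ifngr2 at 346 ± 24.5. Of the type I interferon receptor, Ifnar1 was not detected and Ifnar2 was faint. Il4ra, Il10ra, Il2ra, Il7r, Csf2rb, Lepr and Epor were not detected.

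Death and tumour necrosis factor receptors gave 11 of 23, or 47.8%, near the 44.6% of all genes. Tnfrsf12a, the receptor for the cytokine TWEAK, gave 4603, 4845 and 5619 units with its highest value on replicate 3. The TRAIL receptor genes Tnfrsf22, a decoy form (1423 ± 167), and Tnfrsf10b (932 ± 52.3), as well as Fas (437 ± 53.5), Tnfrsf1a (299.9 ± 13.6), Tnfrsf1b (332 ± 34.7) and Ltbr (299 ± 13.2), were also present. Pattern receptors gave 8 of 23, or 34.8%, below the share of all genes. The parts of the lipopolysaccharide receptor were detected together, with the coreceptor Cd14 as given above. Tlr4 gave 402, 421 and 336 units. Its partner Ly96 gave 681, 728 and 632 units, and all of these arrays lay above the faint range. Their adaptor Myd88 had a mean of 1469 ± 24.6 and the intracellular peptidoglycan sensor Nod1 one of 2325 ± 221. Tlr2, Tlr3, Tlr5, Tlr9, Nod2 and Ifih1 were not detected.

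No chemokine or complement receptor gene was detected on all 3 arrays, 0 of 25 with a probe. Ackr4, Ccr7 and Ccrl2 reached the threshold on 2 arrays, and the other 22 on none, including Cxcr4 and Ackr3, the receptors for Cxcl12, Ccr2, the receptor for Ccl2, Cx3cr1 and Cxcr6. Cxcr4 and Ackr3 have 1 probe each, on which their calls rest. Leaving out replicate 1 gave 1 detected gene on the list and leaving out replicate 3 gave 2. Of 47 other G protein-coupled receptor genes 10 were detected, or 21.3% against 44.6% of all genes. F2r, the thrombin receptor PAR1, gave 13635, 14179 and 12096 units, rank 98 of all detected genes. The sphingosine 1-phosphate receptor S1pr2 gave 1959.7 ± 98.8, the lysophosphatidic acid receptor Lpar6 1130.1 ± 124 and the orphan receptor Gprc5a 909.5 ± 68.3. The prostaglandin receptor genes Ptger2, Ptger3, Ptgir and Ptgfr, the hormone receptor genes Fshr, Gnrhr, Oxtr and Tshr, and S1pr1, S1pr3, Agtr1a and Ednrb were not detected.

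The classical sex steroid receptors were not found. Esr1, Esr2 and Pgr, the receptors for estrogens and progesterone, were at background with all 4, 3 and 2 of their probes. Of 38 nuclear receptor genes 16 were detected, or 42.1% against 44.6% of all genes. Above the faint range lay 8, or 21.1% against 37.2%. Rxrb, a shared partner of many nuclear receptors, gave 1539, 1205 and 1328 units. Ppard, a fatty acid sensor, gave 1296, 1324 and 1260.2 units. Esrra, an estrogen-related orphan receptor of energy metabolism, gave 1198, 1222 and 1219 units. Rxrb was highest on replicate 1, and the arrays of Ppard and Esrra nearly coincided. Nr2f6 (809 ± 16.3), the bile acid receptor Nr1h4 (637 ± 59.5), the vitamin D receptor Vdr (356 ± 19.9) and the clock gene Nr1d2 (299.9 ± 35.7) followed. The glucocorticoid receptor Nr3c1 reached the threshold on 2 arrays, and Nr3c2, Thrb, Rara, Rora and Ppara were not detected.

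**Figure D5:**
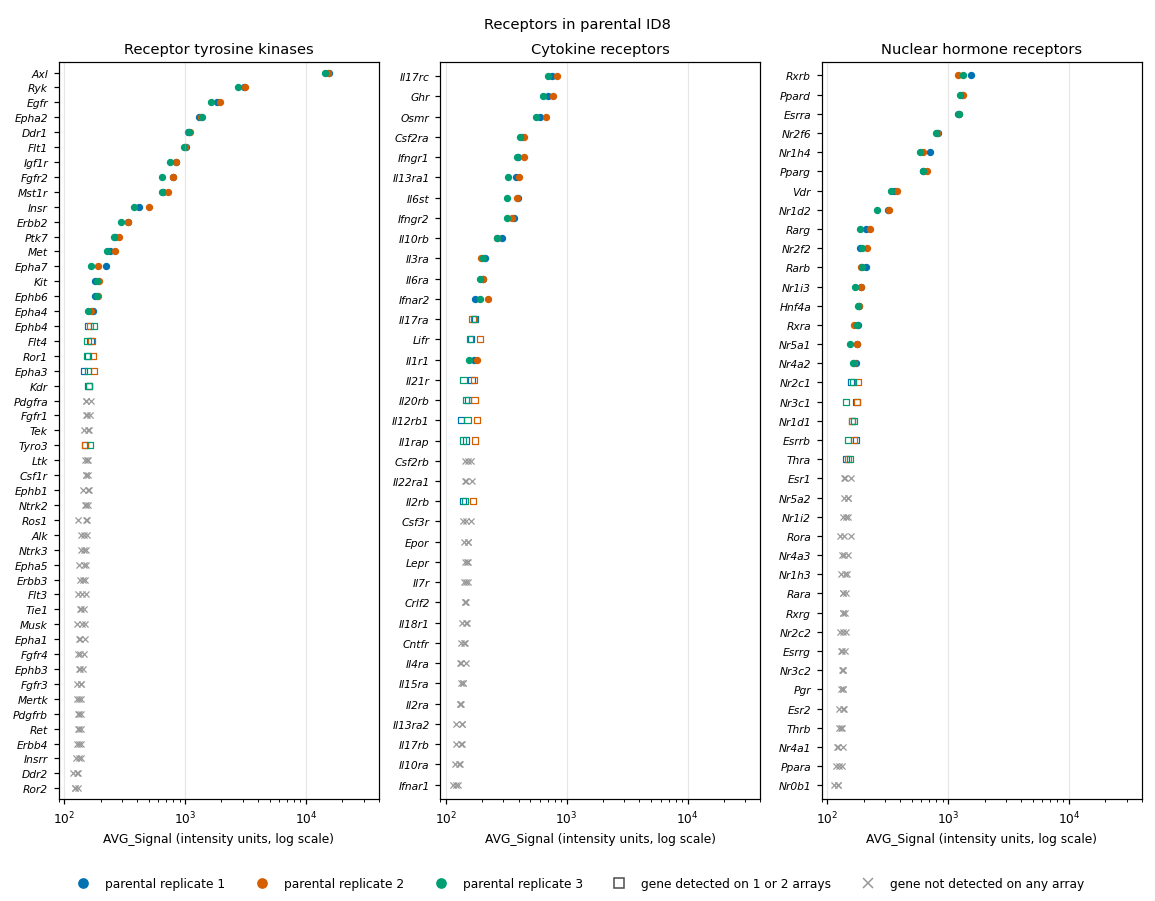
AVG_Signal (intensity units, log scale) on the 3 parental arrays for every member with a probe of 3 receptor lists, with filled circles for detected genes, open squares for genes detected on 1 or 2 arrays and grey crosses for genes not detected. Axl at 15060.2 units is the brightest receptor tyrosine kinase probe, the cytokine receptors end at 763 units (Il17rc), and Esr1, Esr2 and Pgr sit at background.

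Several ligands were seen without their main receptors, and the reverse. The genes named in this paragraph were paired after their values were seen, and the pairing is by textbook knowledge. Pdgfb and Pdgfa were detected while both of their receptors were not, and Cxcl12 was detected without Cxcr4 or Ackr3. The ligand Csf1 was detected, and its receptor Csf1r was not. In the other direction, Met was detected without its ligand Hgf, Fgfr2 without Fgf7 or Fgf10, and Amhr2 without Amh. Ligand and receptor were both detected for Btc with Egfr, for Gas6 (532 ± 43.2) with Axl, for Igf1 with Igf1r, and for Bmp4 with Bmpr1a and Bmpr2. Whether any of these pairs signals in the cells was not tested.

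Proliferation genes were detected almost throughout, 22 of 24, with a median over those detected of 2704 units against 549 over all detected genes. The replication helicase genes Mcm4 (9981 ± 1231) and Mcm5 (8456 ± 63), the survivin gene Birc5 (4454 ± 101), the mitotic activator Cdc20 (4204 ± 273) and the kinase Plk1 (3348 ± 375) were among the brightest members, and Bub1 and Ccnb2 were not detected. Of 29 genes altered or tested in ovarian cancer 21 were detected, or 72.4% against 44.6% of all genes. Ccnd1, cyclin D1, gave 8087, 7901 and 7953 units. The oncogene Nras gave 5554, 5012 and 5052 units. Ctnnb1, beta-catenin, gave 4222, 3842 and 3872 units. Nras and Ctnnb1 were highest on replicate 1, and the mismatch repair gene Msh6 had a mean of 4018 ± 433. The homologous recombination genes Brca2 (306 ± 13.5) and Brca1 (182 ± 11.7), named after their values were seen, were detected, Brca1 in the faint range. Nf1, Cdkn2b, Braf, Atr and Mycn were not detected. Transcript detection says nothing of mutations.

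The sex of origin was checked from sex-linked transcripts of the mouse line. Xist, the RNA that coats the inactive X chromosome, gave 1611, 1493 and 1092 units with all 4 of its probes detected and its lowest value on replicate 3. Of the Y-linked genes with a probe, Kdm5d, Sry, Usp9y, Zfy1 and Zfy2 were not detected. Uty was in the faint range with 1 of its 4 probes, at 190.3, 187 and 164 units, and Eif2s3y reached the threshold on 1 array.

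The 3 arrays were close to each other. Log2 intensities over the detected probes correlated at 0.996 to 0.9965 across probes, which are not independent replicates. No detected probe differed over 2-fold between any pair of arrays in these intensities, from which background was not subtracted. The median coefficient of variation of detected genes was 6.33% on the same scale. Background of 132.2 to 138.9 units makes both measures look smaller for dim probes than they would be after its removal. In the authors' normalized intensities, between 17.4% and 21.7% of detected probes differed between 2 arrays by more than 1.96 times their combined bead error. The bead errors were scaled to those intensities. In the deposited AVG_Signal, 0 probes had the same value on replicates 1 and 2, so these 2 arrays were not copies of each other. After background correction and normalization, the genes with the largest SD on the log2 scale were dim ones. Cct2, a chaperonin subunit, had the largest (SD 0.69), with 236, 238 and 162 units. Kctd14 followed at 399, 233 and 279 units, Ube2s, a ubiquitin-conjugating enzyme of mitosis, at 214, 212 and 301, Pou5f2 at 239, 178 and 166 and Pcid2 at 191, 287 and 213. In each of these 5 genes 1 array stood apart from the other 2, and it was not the same array for all.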

How the data were processed

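The deposited values are AVG_Signal intensities per probe with no normalization per the deposited table's title, and their floor far above 0 shows that background was left in. Bead numbers, bead errors and detection p-values were deposited by the authors beside them for each array, per the file headers. No label or header names the scanner software. The authors' normalized intensities of the same arrays served as an alternative and for the comparison of arrays with bead error. Probes were named through the platform annotation, in which 34885 of 45281 probes have 1 gene symbol. A gene was represented by its brightest detected probe, and means, SDs and ranks were computed from deposited AVG_Signal. limma 3.58.1 in R 4.3.3 (neqc, offset 16) gave log2 values for the SD ranking. There is 1 group, so no test was run.

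Values are printed for the 25 brightest genes, up to 8 of the brightest detected members of each list (5 for lists made from symbols), a set of ovarian and receptor genes given whatever their result, and the 5 genes of largest SD. The members and lists were chosen with earlier results of these data known. The core ribosomal protein list and the faint range were added after seeing the data. Alternatives changed the detection threshold, the number of arrays, the bead minimum, the normalization and the choice of probe. Genes with no single-symbol probe are not analysed here.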

Additional observations from a re-analysis of the deposited data

Results flagged for a closer look

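Signal was present in probes that none of the descriptions above uses. Of 10396 probes without a single gene symbol, 2174 were detected on all 3 arrays, or 20.9%, against 37.5% of the probes with 1 symbol. Their median mean signal was 329 units, and 114 of them exceeded 10000 units, with the brightest at 33030 units. They carry no name here, so some of the brightest transcripts of the line have no place in the ranking.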

How the results depend on the processing

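The count of detected genes was 8495. It fell to 7628 at a detection p under 0.01 and to 7094 when genes in the faint range were left out, an alternative chosen after seeing the data. It was 8979 when 2 of the 3 arrays sufficed, and 8613 to 8703 with 1 replicate left out. A minimum of 5 beads changed neither this count nor the 15259 detected probes. It could not have done so, since every probe had at least 11 beads on each array. The 100 brightest genes were all shared with the deposited normalized values and with both neqc normalizations. These normalizations keep the order of probes within an array, so that overlap was nearly fixed in advance. Of the 100 brightest genes, 98 to 99 were shared with 1 replicate left out, and 79 with the mean over all detected probes of a gene. Most list counts stayed within 1.5 times their value, and the exceptions follow. Leaving out faint genes gave 0 for MHC class II, Mullerian duct, germ cell, hepatocyte, olfactory, and vomeronasal and taste genes, 1 for sex-linked genes, 2 for granulosa genes, 4 each for Wnt, Notch and hedgehog receptors and for claudins, and 8 for nuclear receptors. A detection p under 0.01 gave 0 for germ cell, hepatocyte, and vomeronasal and taste genes, 1 for Mullerian duct, olfactory and sex-linked genes, 2 for granulosa genes, and 5 for Wnt, Notch and hedgehog receptors. Asking for 2 of the 3 arrays gave 2 for MHC class II, 3 for chemokine and complement receptors, 14 for netrin and semaphorin receptors, 15 for collagens, 28 for olfactory receptors, and 2 for vomeronasal and taste receptors. With 1 replicate left out, MHC class II gave 1 to 2, chemokine and complement receptors 0 to 2, and vomeronasal and taste receptors 1 to 2. No paired analysis was possible because a single group was described and its values come from no test. Depth is limited by probe brightness over background, so genes near the threshold, and transcripts whose probe binds poorly, cannot be called either way.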
